A study of Mus musculus with 2 samples.

Results

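The PARP family genes encode ADP-ribosyltransferases, and 10 of them were followed here by their symbols, Parp1, Parp2, Parp3, Parp4, Parp6, Parp8, Parp9, Parp10, Parp12 and Parp14, among 55414 gene identifiers in the count tables. All 10 were found, each under a single identifier. They were read in mouse embryonic stem cells of the wild-type line R1E grown in serum medium with leukemia inhibitory factor. The untreated library was labelled 0 h, and the other came from cells given 0.5 µM Adriamycin (doxorubicin, which traps topoisomerase II on cut DNA) for 8 h in the same medium. There was 1 library per condition, from 1 cell line, which allows neither a p-value nor any test of the drug, and the drug, the time in culture and any difference between the cultures cannot be told apart.

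ADP-ribosyltransferases take ADP-ribose from NAD+ and attach it to proteins or nucleic acids, as chains (PARP1, PARP2 and the tankyrases) or as a single unit (most other members). PARP1 binds DNA breaks within seconds and its chains recruit repair factors, and inhibitors of PARP1 and PARP2 are cancer drugs. Other members are better known from innate immunity: in human and mouse cells PARP9, PARP10, PARP12 and PARP14 are made in response to interferon.

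Total reads were 41820999 without and 38561292 with the drug. The p53 target genes Mdm2 and Cdkn1a were 7.16-fold and 3.10-fold higher with Adriamycin, a check of that label. All 10 embryonic stem cell markers were measured in both libraries, with a summed level of 6805 CPM (counts per 1e6 reads of the scaled library size) untreated and 3877 CPM with Adriamycin, and 5 of them were at least 2-fold lower, or 2 with total-count scaling. The 5 stem cell markers at least 2-fold lower included Zfp42 (3.69-fold), Nanog (3.16-fold), Utf1 (2.20-fold) and Esrrb (2.08-fold). Of 10 fibroblast markers, listed because stem cells can be grown on feeder cells, Col3a1, Postn, Dcn, Lum and S100a4 had 0 reads in both libraries. The summed level of the list was 41.2 CPM untreated and 122 CPM with Adriamycin, with Col1a1 and Fbln2 at least 2-fold higher. Of 5 blood cell markers, Ptprc had 0 reads in both, and the list summed to 133 and 116 CPM. Pecam1 had a log2 ratio of -0.37 and Cd68 of 0.12. Cd14 had 9 and 55 reads and Csf1r 13 and 46, both higher with Adriamycin and both under a mean of 1 CPM. Of 6 markers of other lineages, T was at least 2-fold higher and Pax6 lower, with sums of 54.6 and 51.0 CPM. The part of such cell states in the values of the PARP genes was not tested. In bulk RNA, fewer cells of a type and less RNA per cell cannot be told apart.

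RefSeq promoter windows (build GRCm38.p6, the 250 bases before the annotated start) were at hand for 7 of the 10 genes, which leaves Parp9, Parp10 and Parp14. They were searched on both strands for the GC box GGGCGG, a site bound by Sp1, for the interferon-stimulated response element as GAAANNGAAA, and for the p53 decamer. Windows of Parp1 and Parp2 are shown because these genes held most PARP reads, that of Parp4 because it holds an interferon element, and that of Parp12 as an interferon gene without such a match. Each runs 5′ to 3′ on the strand of the gene, and capitals mark the motif matches.
Parp1, chr1:180568641-180568890, plus strand: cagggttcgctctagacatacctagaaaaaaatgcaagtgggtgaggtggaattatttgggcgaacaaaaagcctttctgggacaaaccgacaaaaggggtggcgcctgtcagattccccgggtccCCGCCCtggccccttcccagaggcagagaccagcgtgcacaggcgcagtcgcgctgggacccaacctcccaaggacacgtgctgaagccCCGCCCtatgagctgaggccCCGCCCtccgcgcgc
Parp2, chr14:50807666-50807915, plus strand: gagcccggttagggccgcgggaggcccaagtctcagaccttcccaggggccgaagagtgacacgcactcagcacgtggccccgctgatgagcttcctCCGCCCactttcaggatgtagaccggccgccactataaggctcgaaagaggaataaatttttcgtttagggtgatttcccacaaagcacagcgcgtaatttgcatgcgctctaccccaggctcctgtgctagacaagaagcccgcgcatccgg
Parp4, chr14:56575369-56575618, plus strand: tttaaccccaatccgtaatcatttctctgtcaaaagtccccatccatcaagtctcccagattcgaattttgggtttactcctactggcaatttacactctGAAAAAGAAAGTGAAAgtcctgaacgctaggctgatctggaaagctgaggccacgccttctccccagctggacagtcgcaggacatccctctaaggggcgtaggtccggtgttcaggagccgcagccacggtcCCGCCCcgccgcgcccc
Parp12, chr6:39118350-39118599, minus strand: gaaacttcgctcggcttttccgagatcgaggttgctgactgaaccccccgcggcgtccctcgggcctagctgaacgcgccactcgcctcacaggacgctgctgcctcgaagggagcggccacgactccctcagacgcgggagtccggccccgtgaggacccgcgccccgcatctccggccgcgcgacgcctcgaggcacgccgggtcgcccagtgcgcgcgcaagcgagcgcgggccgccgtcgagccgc

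The window of Parp1 held 3 GC boxes, all read on the opposite strand, with the nearest ending 10 bases before the start. Parp2 and Parp4 had 1 GC box each and Parp8 had 2, so 4 of 7 PARP windows held this motif, against 32.7% of all 32851 promoter windows of the same length. The interferon element occurred in the window of Parp4 alone among the 7, at 2 overlapping places between 150 and 135 bases before the start, and in 2.98% of all windows. The p53 decamer occurred in the window of Parp3 alone among the 7, from 171 to 162 bases before the start, and in 7.13% of all windows. The windows shared a high GC content, from 54.4% in Parp4 to 74.8% in Parp8, all above the median of 52.4% over all windows. These matches describe the letters only, and binding was not tested.

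Among the PARP genes, only Parp10 had a level at least 2-fold higher with Adriamycin, and only Parp14 a level at least 2-fold lower. Parp1, Parp2, Parp6, Parp9 and Parp12 were lower by less than 2-fold, with counting intervals that did not include no difference. Parp3 and Parp4 were higher by less than 2-fold. A gene was called measured where its 2 libraries averaged 1 CPM or more, which 9 of the 10 genes reached, all but Parp8. Of these 9, 1 was at least 2-fold higher, where 17.0% of the 14871 measured genes were, and 1 was at least 2-fold lower, where 6.95% were. The other 7 lay within 2-fold. Counts this small do not set the family apart from the background. The median log2 ratio (Adriamycin over untreated) of the 9 was -0.45 and their mean 0.10, a difference in sign that comes from Parp10. The median of all measured genes was -0.03.

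**Figure D1:**
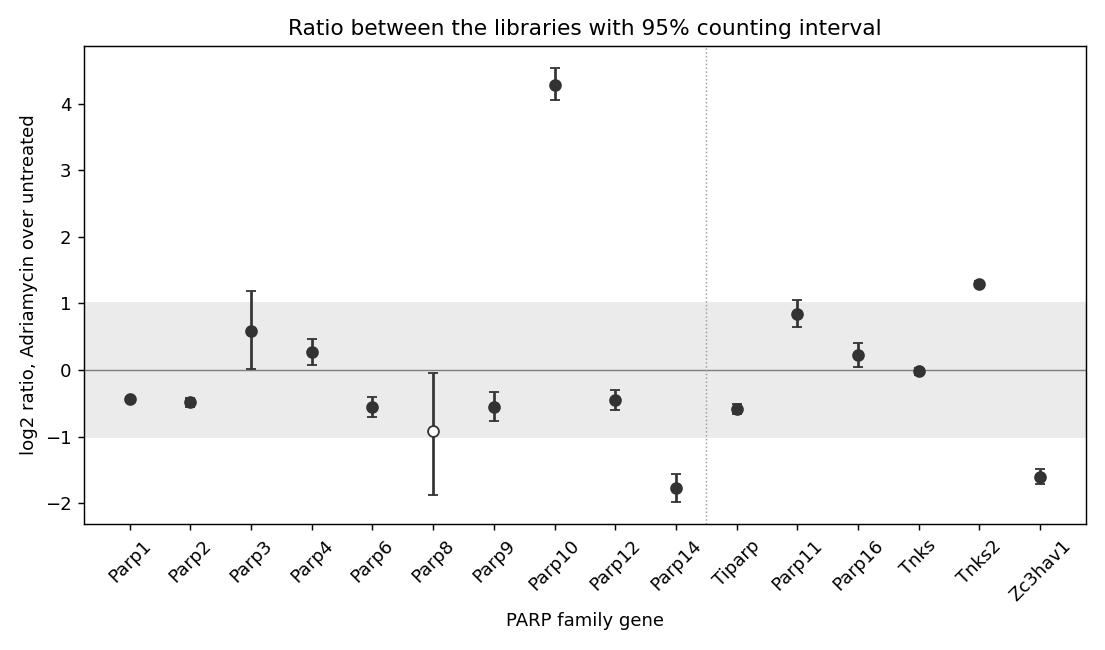
Log2 ratio of the Adriamycin over the untreated library for the 10 PARP genes (left of the dotted line) and 6 further family genes (right). Bars are exact 95% counting intervals, the grey band marks less than 2-fold, and the open point is Parp8, which was under the level called measured. Parp10 lies alone at 4.29, and Parp14 and Zc3hav1 lie under -1.

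Parp1, the main sensor of DNA breaks (ENSMUSG00000026496, chromosome 1, 180396489 to 180428819, GRCm39), had 44862 reads untreated and 33999 with Adriamycin. That is 1128 and 838 CPM, a log2 ratio of -0.43 with a 95% counting interval of -0.45 to -0.41. The level was lower in the Adriamycin library by more than counting error and by less than 2-fold. Parp2, which joins PARP1 at breaks (ENSMUSG00000036023, chromosome 14, 51045298 to 51058758), had 3790 and 2758 reads, or 95.3 and 68.0 CPM. Its log2 ratio of -0.49 (-0.56 to -0.42) was close to that of Parp1, and the intervals overlapped. Together these 2 genes held 93.0% of the summed CPM of the 10 genes without and 87.3% with Adriamycin.

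Parp3, a mono-ADP-ribosyltransferase of break repair (ENSMUSG00000023249, chromosome 9, 106347521 to 106354148), was scarce, with 43 and 66 reads. Its log2 ratio of 0.58 had an interval of 0.01 to 1.18, and with counts divided by 2, for mates counted separately, the interval was -0.24 to 1.45 and included no difference. A difference in Parp3 was thus not detectable at this depth. Parp4, the PARP of the vault particle (ENSMUSG00000054509, chromosome 14, 56813076 to 56897251), had 416 and 511 reads, or 10.5 and 12.6 CPM. Its log2 ratio was 0.27 (0.08 to 0.46). With counts divided by 2 the lower end was -0.00086, so the interval only just included no difference. Parp3 and Parp4 were the only genes besides Parp10 with a ratio above 0.

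Parp10 stood apart. It encodes a mono-ADP-ribosyltransferase first described as a partner of MYC in human cells, and it lies on chromosome 15 (ENSMUSG00000063268, 76115374 to 76127641, minus strand). It had 147 reads untreated and 2933 with Adriamycin, that is 3.70 and 72.3 CPM. The level was 19.5-fold higher, a log2 ratio of 4.29 (4.05 to 4.54, and 3.95 to 4.65 with counts divided by 2). Only 204 of the 14871 measured genes had a higher ratio. Among the 4767 measured genes with a mean level within 2-fold of that of Parp10, 10.7% were at least 2-fold higher.

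Parp14 differed in the other direction. Its product carries macrodomains, which bind ADP-ribose, and acts with STAT6 in interleukin 4 signalling (ENSMUSG00000034422, chromosome 16, 35653244 to 35691914, minus strand). It had 825 and 246 reads, or 20.7 and 6.07 CPM, and was 3.41-fold lower with a log2 ratio of -1.77 (-1.98 to -1.57). Only 172 measured genes had a lower ratio, and among the 3698 measured genes within 2-fold of its mean level 6.03% were at least 2-fold lower. Parp9, a macrodomain protein that works with the ubiquitin ligase DTX3L (ENSMUSG00000022906, chromosome 16, 35758840 to 35792975), had 429 and 299 reads. Its log2 ratio was -0.55 (-0.77 to -0.33), and this interval did not reach that of Parp14 on the same chromosome. Parp12, a zinc finger member with antiviral activity (ENSMUSG00000038507, chromosome 6, 39063344 to 39095283), had 908 and 677 reads, and its log2 ratio was -0.45 (-0.60 to -0.31). The 4 members known as interferon genes thus did not differ alike between the libraries.

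Parp6 and Parp8 are less studied mono-ADP-ribosyltransferases. Parp6 (ENSMUSG00000025237, chromosome 9, 59524567 to 59557568) had 849 and 590 reads, and its log2 ratio was -0.55 (-0.71 to -0.40). Parp8 (ENSMUSG00000021725, chromosome 13, 116991356 to 117162073) had 32 and 17 reads, or 0.805 and 0.419 CPM. Its log2 ratio of -0.92 had an interval of -1.88 to -0.05, and of -2.33 to 0.35 with counts divided by 2, so a difference was not detectable at this depth. It is also the gene with the widest span of the 10, at 170718 bases against 6628 to 84176 for the others.

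**Figure D2:**
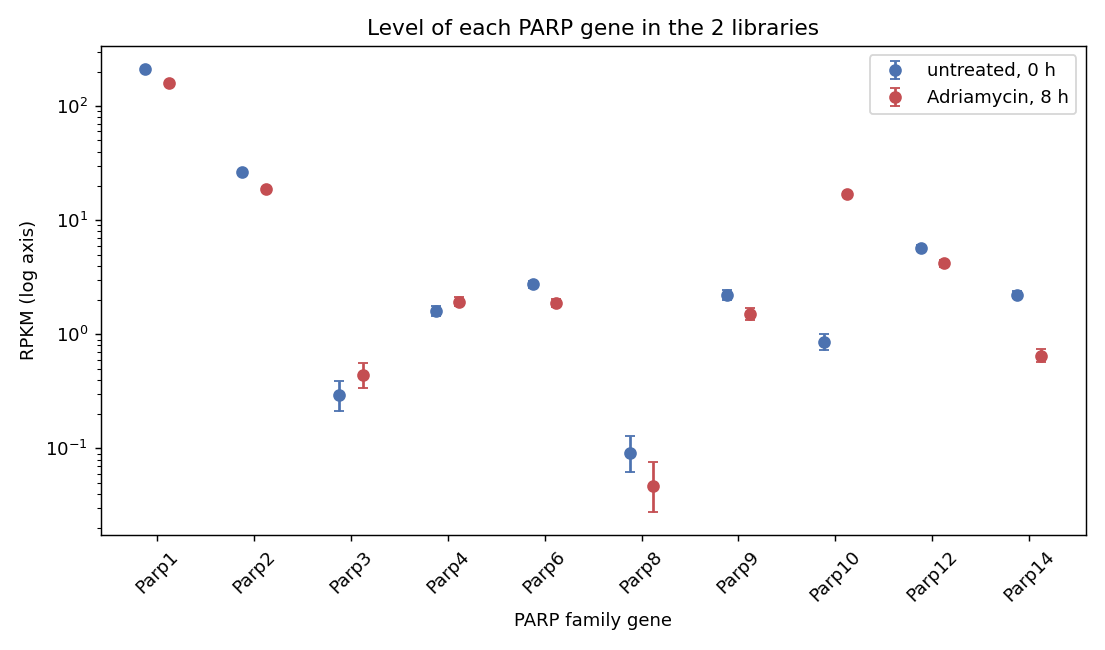
Level of each PARP gene per exon length (RPKM, log axis) in the untreated and the Adriamycin library, with exact 95% Poisson intervals that cover counting error only. Parp1 is highest in both libraries, and Parp10 moves from 0.865 to 16.9 RPKM.

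To compare genes with each other, levels were set per kilobase of exon, as CPM divided by exon length (RPKM). Parp1 was highest in both libraries, with 213 RPKM untreated and 158 RPKM with Adriamycin, 8.11-fold and 8.45-fold above Parp2 at 26.3 and 18.7 RPKM. In the untreated library Parp12 (5.71 RPKM), Parp6 (2.75), Parp14 (2.23), Parp9 (2.21), Parp4 (1.60), Parp10 (0.865), Parp3 (0.292) and Parp8 (0.0906) followed in this order. Parp14 and Parp9 could not be ordered there, since their Poisson intervals of 2.08 to 2.39 and 2.01 to 2.43 RPKM overlapped.

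With Adriamycin, Parp10 ranked 3 of the 10 genes at 16.9 RPKM (16.3 to 17.5), just under Parp2 (18.1 to 19.5). Then came Parp12 (4.18 RPKM), Parp4 (1.93), Parp6 (1.87), Parp9 (1.51), Parp14 (0.652), Parp3 (0.440) and Parp8 (0.0472). The intervals of Parp4 and Parp6 overlapped (1.77 to 2.10 and 1.73 to 2.03 RPKM), so these could not be ordered either. Among the 9 genes other than Parp1, Parp10 held 1.98% of the summed CPM untreated and 36.2% with Adriamycin. The summed level of these 9 genes was 187 and 200 CPM, while that of the 8 genes without Parp1 and Parp10 was 183 and 127 CPM.

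**Figure D3:**
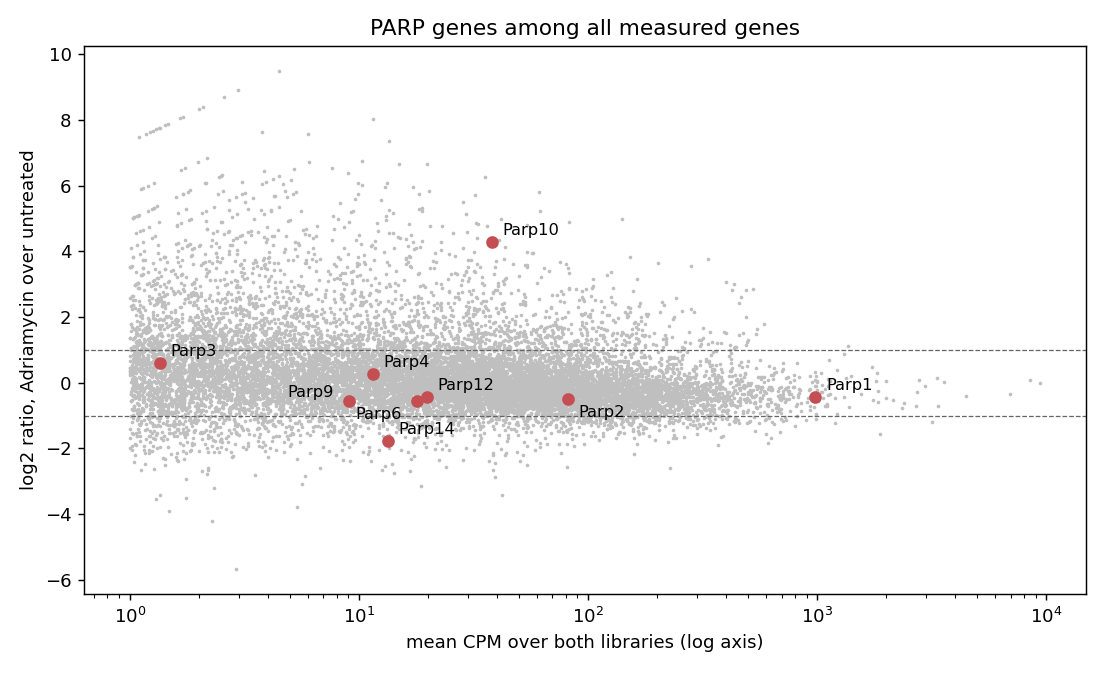
Log2 ratio (Adriamycin over untreated) against mean CPM over both libraries (log axis) for the 14871 measured genes in grey, with the 9 measured PARP genes in red and 2-fold marked by dashed lines. Parp10 lies near the upper edge of genes of its level and Parp14 near the lower edge, while Parp1 is among the most abundant genes.

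The remaining genes of the family differed in both directions. Tnks2, a tankyrase that builds ADP-ribose chains on AXIN, a brake of Wnt signalling, had 11429 and 28661 reads and was 2.46-fold higher (log2 ratio 1.30, 1.27 to 1.33). Its relative Tnks had 6531 and 6575 reads and a log2 ratio of -0.02. Zc3hav1, the antiviral zinc finger protein ZAP, which lacks transferase activity, had 2441 and 820 reads and was 3.03-fold lower (log2 ratio -1.60, -1.72 to -1.49). Tiparp, a target of the aryl hydrocarbon receptor, had a log2 ratio of -0.59, Parp11 0.85 and Parp16, a member of the endoplasmic reticulum membrane, 0.22. So 1 of 6 was higher and 1 lower, where 17.0% and 6.95% of all measured genes were. Their median of 0.10 was -0.02 with upper-quartile scaling.

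Parp10, Parp9 and Parp3 share exon bases with named genes that have more than a few reads, which bears on their counts. Per the file headers, no option was set to count reads that overlap several genes or to use the strand. A read that overlaps exons of several genes then counts for none of them. Parp10 shares 205 of its 4275 exon bases (4.80%) with Plec, the gene of the cytoskeletal linker plectin, which lies downstream on the same strand. Plec had 8299 and 19866 reads and was 2.35-fold higher. The tables give 1 count per gene, so the place of the Parp10 reads along the gene is not known, and the part of Plec transcripts in the Parp10 count was not tested. Parp9 shares 458 of 4872 exon bases (9.40%) with Dtx3l on the opposite strand, and Parp3 shares 20 of 3699 (0.541%) with Rrp9, an opposite gene of ribosomal RNA processing with 8459 and 6641 reads.

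**Figure D4:**
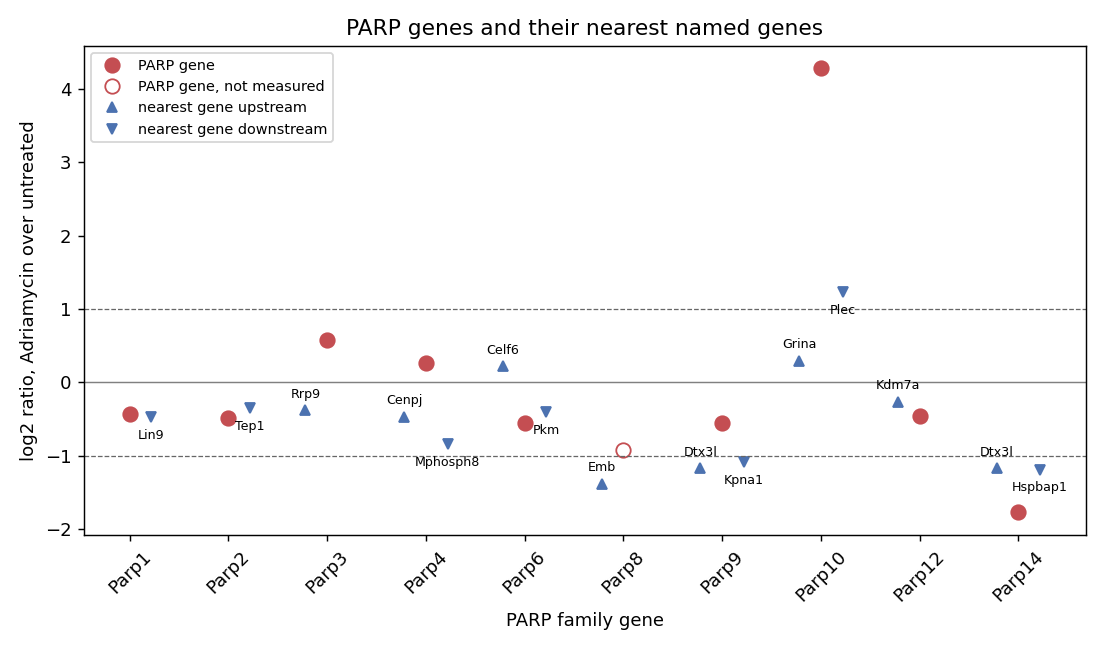
Log2 ratio (Adriamycin over untreated) of each PARP gene (circles, open where under the level called measured) and of its nearest named genes upstream and downstream (triangles, measured genes only). Dashed lines mark 2-fold, and the genes around Parp14 and Parp9 all lie below 0.

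The nearest named genes on each side were 19 in all, of which 14 were measured. Of these, Plec was at least 2-fold higher, and Dtx3l, Kpna1, Hspbap1 and Emb were at least 2-fold lower. Among all measured genes these shares were 17.0% and 6.95%. Dtx3l, Kpna1 and Hspbap1 are the neighbours of Parp14 and Parp9 on chromosome 16. Hspbap1 had 4212 and 1884 reads (log2 ratio -1.19), Dtx3l 784 and 355 (-1.17) and Kpna1, an importin gene, 6597 and 3171 (-1.08). All 5 named genes of this stretch, Parp14 and Parp9 included, had a lower level in the Adriamycin library, with Parp14 farthest from no difference.

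Several PARP genes face a gene on the opposite strand. The start of Parp4 lies 193 bases from the centrosome gene Cenpj, which had 857 and 630 reads and a log2 ratio of -0.47, against 0.27 for Parp4. Parp2 lies 73 bases from Rpph1, the RNA of ribonuclease P, which had 0 reads in both tables. Parp3 and Rrp9 overlap at their starts and had log2 ratios of 0.58 and -0.38. Parp9 and Dtx3l, whose products form a complex, overlap at their starts and had -0.55 and -1.17, with intervals that did not meet (-0.77 to -0.33 against -1.36 to -0.99). Facing genes thus did not always differ alike.

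Of all measured genes, 17.0% were at least 2-fold higher and 6.95% lower, the background for this list of genes and those below. Counts in lists this small do not set them apart from it. Enzymes that remove ADP-ribose had 2 of 9 measured genes at least 2-fold higher and 0 lower, with a median log2 ratio of 0.37. These were Macrod1 (335 and 695 reads, log2 ratio 1.02) and Nudt16 (151 and 318 reads, 1.04), both close to the 2-fold limit. With upper-quartile scaling neither reached it, and with total counts 3 genes did. Parg, which takes apart ADP-ribose chains, had 4883 and 5104 reads and a log2 ratio of 0.04.

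Partners of PARP1 and readers of ADP-ribose had 0 of 12 genes at least 2-fold higher and 0 lower, with a median of -0.07 that was 0.08 with total counts. The scaffold gene Xrcc1 was nearest to the limit, with 4021 and 8100 reads (log2 ratio 0.98, 0.93 to 1.04), and passed it with total counts. Hpf1, the factor that directs PARP1 and PARP2 to serine, had 1528 and 1221 reads and a log2 ratio of -0.35.

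Genes that supply NAD+, the substrate, had 2 higher and 1 lower of 11 measured, with a median of -0.14 that was 0.01 with total counts. Nampt, the rate-limiting enzyme of NAD+ salvage, had 10293 and 3606 reads and was 2.91-fold lower (log2 ratio -1.54, -1.60 to -1.49). Nmrk1, a nicotinamide riboside kinase, was 2.59-fold higher with 180 and 476 reads, and Nmnat3 2.55-fold higher on 37 and 97 reads. Of 9 measured genes of other NAD+ users, 2 were higher and 0 lower, with a median of 0.06 that was -0.06 with upper-quartile scaling. The 2 higher genes were Sarm1, an NAD+ hydrolase known from axon loss (531 and 1279 reads, 2.36-fold), and the sirtuin Sirt4 (383 and 795 reads, 2.03-fold). With upper-quartile scaling 1 gene was higher and 1 lower.

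Interferon genes, listed because Parp9, Parp10, Parp12 and Parp14 are known to answer to interferon, differed in both directions. Of 27 genes 15 were measured, and 4 were at least 2-fold higher and 3 lower, with a median log2 ratio of -0.24 and a mean of 0.31. Among the higher genes Xaf1 was 3.03-fold higher with 887 and 2742 reads, and Cxcl10 and Zbp1 24.8-fold and 12.1-fold. Of the 2252 exon bases of Cxcl10, 133 are shared with the opposite gene Art3 (4 and 337 reads), and reads there count for neither gene. Irf1 was 2.09-fold lower with 1358 and 663 reads, and Rigi 5.13-fold and Dtx3l 2.25-fold lower. With total counts 2 genes were lower.

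Classical interferon-induced genes stayed near silence. Isg15 had 0 and 2 reads, Ifit1 had 1 and 1, and Ifit3 had 0 in both libraries, and a count of 0 allows up to 3 reads. Usp18 had 0 and 51 reads and Mx1 0 and 24, and both stayed under a mean of 1 CPM. Against a floor of 3 reads in the untreated library, their Adriamycin levels were 16.7-fold and 7.85-fold higher. These folds leave out the counting error of the Adriamycin reads. The lower ends of their counting intervals were log2 ratios of 3.71 and 2.56, and 2.66 and 1.45 with counts divided by 2. Stat2 and Irf9, transcription factors of the interferon response, had log2 ratios of -0.36 and -0.51.

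**Figure D5:**
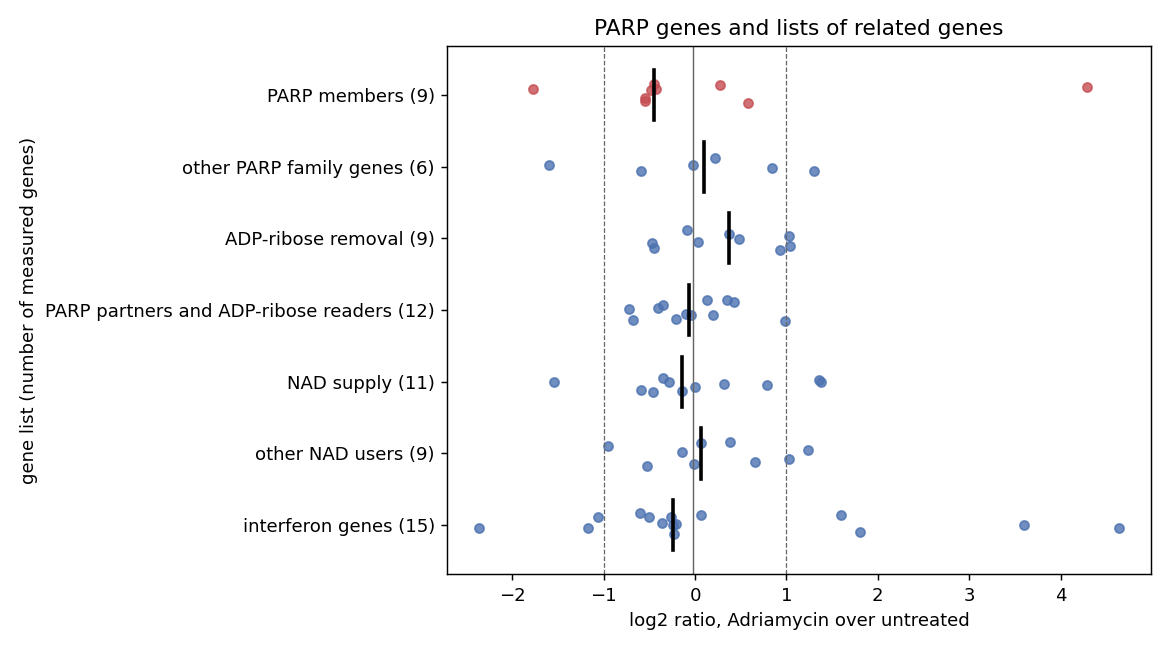
Log2 ratio (Adriamycin over untreated) of the measured PARP genes (red) and of measured genes in 6 lists of related genes (blue), 1 point per gene with random vertical scatter. Black bars are list medians, the grey line is the median of all measured genes and dashed lines mark 2-fold. Parp10 and the interferon genes Cxcl10 and Zbp1 lie farthest to the right.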

How the data were processed

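Each library has a deposited table of raw counts by gene. Per the file headers, these were made with featureCounts 2.0.3 from paired-end alignments and annotation release 105 of GRCm39, with no option for strand, for reads on several genes or places, or for counting pairs as fragments. More genes had 2 reads than 1 read (2067 against 1629 untreated, 2266 against 1719 with Adriamycin), which fits mates counted separately. Among the tools in the submitters' processing notes are HISAT2 2.0.4 and another featureCounts version, 1.6.0, and the builds there, mm9 and mm10, are not that of the headers. Gene positions are those of the tables. Symbols came from GENCODE M21 names, matched for 52081 of 55414 identifiers.

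Library sizes were scaled with TMM factors of 0.951 and 1.05 (edgeR 4.0.16, R 4.3.3). CPM, RPKM (over the summed exon length in the tables) and log2 ratios, with a pseudocount of 0.5 read, were computed with Python 3.11.15 (scipy 1.17.1, numpy 2.4.6, pandas 2.3.3). An average of 1 CPM or more over the libraries was called measured, and a ratio of at least 2-fold was called higher or lower. Intervals are exact at 95% (conditional binomial for ratios, Poisson for levels) and cover counting error only. Mates and PCR copies are not independent molecules, so the intervals are too narrow. The computation of the ratios was checked on simulated independent Poisson counts. These hold no paired mates, PCR copies or differences between cultures, so the check does not show how wide the intervals should be here.

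The PARP genes, the 10 other gene lists and the rules were chosen with earlier results of these data known. Named genes are the 10 PARP genes, 6 further family genes, up to 4 genes at least 2-fold apart in each list or else the one farthest from no difference, nearest named neighbours, genes that share exons, Hpf1, Parg, Dtx3l, Mdm2 and Cdkn1a. Isg15, Ifit1, Ifit3, Usp18, Mx1, Xaf1, Irf1, Stat2, Irf9, Cd68, Cd14 and Csf1r were named after their values were seen. Not every gene named by this rule is reported. Promoter motifs were chosen after the values were seen too. Alternatives were other scalings, counts divided by 2, a pseudocount of 2 reads, other level filters and a 1.5-fold limit.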

Additional observations from a re-analysis of the deposited data

How the results depend on the processing

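No paired analysis was possible because each condition has 1 library. The counts of 1 PARP gene at least 2-fold higher and 1 lower were the same under total counts, upper-quartile factors, DESeq2 1.42.0 size factors, counts divided by 2, a pseudocount of 2 reads, no filter beyond 1 read, a mean of at least 5 CPM and a 1.5-fold limit. The log2 ratio of Parp10 ran from 4.16 to 4.43 and that of Parp14 from -1.89 to -1.63, and no PARP gene changed sign under the scalings, the divided counts or the other pseudocount. The median of the PARP genes was -0.31 under total counts and -0.57 under upper-quartile factors, which shifted the median of all measured genes by 0.14 and -0.12. Relative to the median of all measured genes it was -0.42 with TMM scaling. Over all genes, 8514 were higher and 4292 lower with no filter beyond 1 read, 1417 were higher with a mean of at least 5 CPM, and 3815 were higher and 2805 lower at 1.5-fold, since these settings change the genes tested or the limit itself. Depth limits Parp3, Parp4 and Parp8, whose intervals included no difference with counts divided by 2, though that of Parp4 only just did.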
